A study of Mus musculus with 23 samples.

Results

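The D cyclins and the inhibitors of their kinases were followed across sorted cell populations of the mouse incisor. The group comprised 10 genes, chosen by name from the 54347 genes of the count table: the D cyclins Ccnd1, Ccnd2 and Ccnd3, the CIP/KIP inhibitors Cdkn1a, Cdkn1b and Cdkn1c, and the INK4 inhibitors Cdkn2a, Cdkn2b, Cdkn2c and Cdkn2d. Cells came from the labial cervical loop, the epithelial pocket at the base of the continuously growing lower incisor, of mice at postnatal day 2 that carry a Sox2-GFP reporter driven by the endogenous Sox2 promoter. Cell sorting gave a Sox2-positive population, labelled as dental epithelial stem cells, and a Sox2-negative population holding the remaining cells of the region. The libraries were made with Smart-seq2 in 2 batches, on separate days and from different mice. Batch A gave 6 libraries of each population, and batch B gave 4 Sox2-negative and 7 Sox2-positive libraries. All groups carry the same reporter, and no drug, deletion or other treatment is given for any of them. The labels do not say whether libraries of a group came from separate mice, so n counts libraries and the p-values measure the spread between libraries, which may be technical.

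D cyclins bind and activate the kinases Cdk4 and Cdk6, which phosphorylate the retinoblastoma protein and thereby free E2F factors to switch on S-phase genes. INK4 proteins bind Cdk4 and Cdk6 themselves and block their pairing with a D cyclin, whereas CIP/KIP proteins bind assembled cyclin-kinase complexes and also inhibit the kinase Cdk2. In the incisor, slowly dividing epithelial stem cells of the cervical loop give rise to rapidly dividing progeny that leave the cell cycle as they become enamel-forming ameloblasts.

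The regions upstream of the start sites are shown for 3 inhibitor genes that were lower in Sox2-positive cells, to show which promoter motifs they hold. RefSeq promoter entries (build GRCm38.p6) matched 7 of the 10 genes, in 11 windows; Ccnd1, Ccnd2 and Cdkn1c had none. Each printed sequence is the 250 bases before a start site, 5′ to 3′ on the strand of the gene, and capitals mark the motifs found. For Cdkn1a, which encodes the p53-induced inhibitor p21, the windows of the upstream start (chr17:29090729-29090978, plus strand) and the downstream start (chr17:29093519-29093768, plus strand) are given. For Cdkn1b, which encodes p27, the window is chr6:134920151-134920400 (plus strand), and for Cdkn2b, which encodes p15, it is chr4:89311033-89311282 (minus strand).
Cdkn1a upstream start: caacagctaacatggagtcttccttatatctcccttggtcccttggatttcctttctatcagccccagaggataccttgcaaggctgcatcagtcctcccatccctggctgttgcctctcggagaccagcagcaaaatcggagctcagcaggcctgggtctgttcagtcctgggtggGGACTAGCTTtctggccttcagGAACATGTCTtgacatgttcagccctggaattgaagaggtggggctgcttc
Cdkn1a downstream start: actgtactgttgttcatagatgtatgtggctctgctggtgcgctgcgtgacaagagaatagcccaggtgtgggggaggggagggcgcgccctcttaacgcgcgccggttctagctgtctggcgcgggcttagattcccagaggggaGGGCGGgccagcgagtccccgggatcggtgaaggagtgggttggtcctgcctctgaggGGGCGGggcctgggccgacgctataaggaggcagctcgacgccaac
Cdkn1b: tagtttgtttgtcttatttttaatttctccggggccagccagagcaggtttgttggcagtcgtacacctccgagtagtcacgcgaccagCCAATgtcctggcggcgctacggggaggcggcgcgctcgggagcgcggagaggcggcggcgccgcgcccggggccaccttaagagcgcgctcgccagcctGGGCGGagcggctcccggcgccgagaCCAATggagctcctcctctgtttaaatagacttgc
Cdkn2b: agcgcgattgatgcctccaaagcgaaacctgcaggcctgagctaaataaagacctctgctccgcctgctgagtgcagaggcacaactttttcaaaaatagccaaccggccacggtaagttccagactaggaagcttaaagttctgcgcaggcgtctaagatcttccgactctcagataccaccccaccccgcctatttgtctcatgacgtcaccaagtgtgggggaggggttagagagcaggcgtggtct
The motifs were searched on both strands as exact letters: the GC box GGGCGG, the TATA box TATAAA, the E2F sites TTTGGCGC and TTTCCCGC, the E-box CACGTG and the CCAAT box CCAAT. A p53 decamer, by its general consensus, was added after the sequences had been seen. The upstream Cdkn1a window held 2 p53 decamers and no other motif. At least 1 such decamer occurred in 7.13% of all 32851 promoter windows of this length, and the share of windows with 2 was not counted. The downstream Cdkn1a window held 2 GC boxes, and the Cdkn1b window held 1 GC box and 2 CCAAT boxes. At least 1 GC box occurred in 32.7% and at least 1 CCAAT box in 33.9% of all windows. The Cdkn2b window held none of these letters. Of all windows, 12.4% held TATAAA, 6.02% CACGTG, 0.417% TTTGGCGC and 0.895% TTTCCCGC. The GC content was 54.0% and 64.8% in the Cdkn1a windows, 64.4% for Cdkn1b and 53.6% for Cdkn2b, against a median of 52.4% over all windows.

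Levels are given as CPM, the estimated counts scaled to a common, TMM-adjusted library total. Totals ranged from 2305778 to 9541443 counts per library, so that 3 counts, taken as the smallest detectable level, lay between 0.357 and 1.30 CPM. Sox2 itself was at most 1.19 CPM in the 10 Sox2-negative libraries and between 2.55 and 20.4 CPM in the 13 Sox2-positive libraries. Summed epithelial markers lay between 240.4 and 606 CPM in Sox2-negative and between 5378 and 8866 CPM in Sox2-positive libraries, and all 13 were called higher. Summed mesenchymal markers lay between 12725 and 16040 CPM in Sox2-negative and between 744 and 2166 CPM in Sox2-positive libraries, where Twist1 was at 0, and all 13 were called lower. The Sox2-negative population also held leukocyte, endothelial and erythroid RNA, and the summed erythroid markers were 985 to 1188 CPM in batch A but 53611 to 62038 CPM in batch B. In Sox2-positive libraries these 3 marker sums stayed at or below 36.6 CPM. The batch B libraries numbered 1 and 2 had more genes detected, at 1 count or more, than the others of their population. They had 23720 and 22831 such genes against 20520 and 20312 in the other Sox2-negative libraries. In Sox2-positive cells these numbers were 20809 and 21110 against 17765 to 19859. Their totals were 9541443 and 7704481 counts against 6609417 and 6397409 in the other Sox2-negative libraries. For Sox2-positive cells the totals were 5978076 and 7111502 against 2305778 to 6464634 counts. The part of depth in the genes detected was not tested. Calls of the 10 genes that were lost or gained without the batch B libraries numbered 1 and 2 are given with both values.

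Sox2-positive cells carried more Ccnd2 and less Cdkn1a, Cdkn1b, Cdkn1c, Cdkn2b and Cdkn2c RNA than Sox2-negative cells when both batches were fitted together. Cdkn2a was too low to be tested, and 9 of the 10 genes passed the filter on low counts. A gene was called at an edgeR adjusted p under 0.05 over all genes tested. Of the 9 tested genes, 1 was called higher and 5 were called lower, and 57.5% of all 17190 tested genes were called, 24.9% higher and 32.5% lower. The count of 6 of 9 was thus near the background. All 5 of the lower genes were inhibitors, 5 of 6 tested, with a median log2 difference of -0.92 against -0.12 over all tested genes. In batch A alone 1 of 9 was called higher and 4 lower, where 43.4% of all genes passed, 19.3% with a higher and 24.2% with a lower level. Batch B by itself gave 1 gene called higher and 6 called lower, where 54.7% of all genes were called, 27.1% higher and 27.6% lower. Between populations of different batches, 5 of the 10 genes did not overlap between batch A Sox2-negative and batch B Sox2-positive libraries (25.7% of all genes) and 4 between batch A Sox2-positive and batch B Sox2-negative libraries (37.0% of all genes). In sorted bulk samples, fewer cells of a type and less RNA per cell cannot be told apart. The epithelial and mesenchymal marker sums above moved with every one of these differences. Glial and neural crest markers also differed between the populations, 7 of 8 called higher and 1 lower over both batches. Their mean sums were 93.5 CPM in Sox2-negative and 1448 CPM in Sox2-positive cells of batch A, then 91.7 and 103 CPM in batch B. Of 5 tested ameloblast markers, 4 were called lower and 1 higher, with mean sums of 867 and 326 CPM in batch A, then 659 and 13.0 CPM in batch B. The part of all these markers in the differences was not tested.

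**Figure D1:**
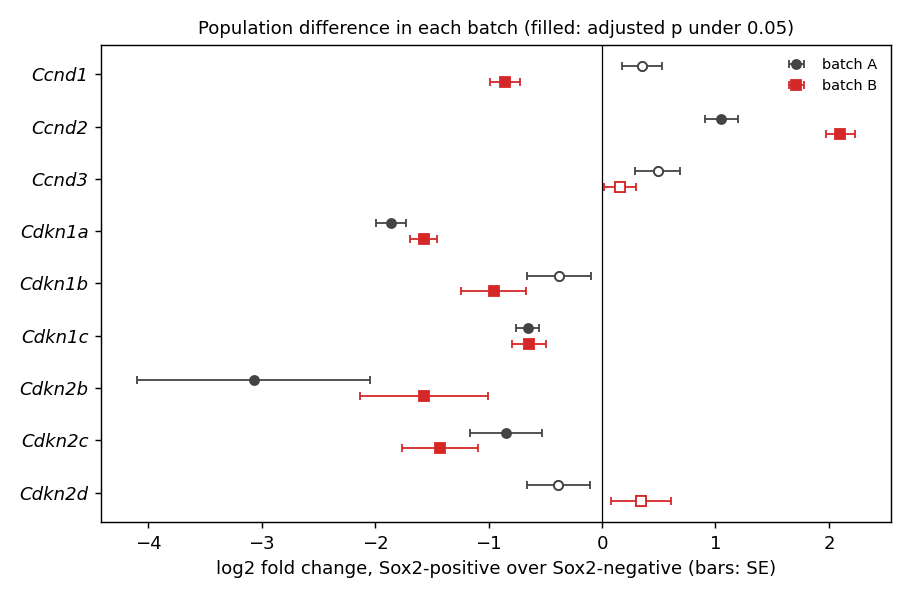
Log2 fold change of Sox2-positive over Sox2-negative cells (x axis) for the 9 tested genes (y axis) in batch A (grey circles) and batch B (red squares), each fitted alone; bars are standard errors and filled symbols passed the adjusted p threshold. Ccnd1 lies on opposite sides of 0 in the 2 batches (0.35 and -0.85), Ccnd2 is the only gene called higher, and Cdkn1c lies at nearly the same place in both (-0.66 and -0.64).

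Ccnd2 was the leading D cyclin and was higher in Sox2-positive cells in both batches. Ccnd2 (chromosome 6, 127125162 to 127152193, minus strand, in mm10/GRCm38 coordinates of GENCODE M21) stood at 379, 562 and 791 CPM (lowest, median and highest) in batch A Sox2-negative libraries and at 978, 1164 and 1290.4 CPM in batch A Sox2-positive libraries. In batch B the Sox2-negative libraries stood at 318, 343, 284 and 431 CPM and the Sox2-positive libraries at 1156, 1422 and 1615 CPM. Every Sox2-positive library lay above every Sox2-negative library, within and between batches. Ranges that did not overlap were found for 25.2% of tested genes between the batch A populations and for 36.4% between the batch B populations. The log2 difference was 1.48 (SE 0.15, edgeR adjusted p = 2.26e-09) over both batches, 1.05 (SE 0.14, edgeR adjusted p = 2.26e-05) in batch A and 2.10 (SE 0.13, edgeR adjusted p = 1.1e-09) in batch B. The difference in batch B minus that in batch A was 0.98 on the log2 scale (SE 0.20, edgeR adjusted p = 0.00209), and 7.04% of all genes were called in that interaction, 2.82% higher and 4.22% lower. Without the batch B libraries numbered 1 and 2 the interaction was 0.90 (edgeR adjusted p = 0.0593) and was not called, in a fit with fewer samples. With any 1 of the 23 libraries left out it was called, from 0.86 to 1.11 (edgeR adjusted p up to 0.00779). Whether the call was lost through these libraries or through fewer samples was not tested.

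Between batches, Ccnd2 was lower in batch B than in batch A Sox2-negative cells (log2 difference -0.71, SE 0.15, edgeR adjusted p = 0.00247), where 11.2% of all genes were called, 5.85% higher and 5.35% lower. Marker sums moved between the same Sox2-negative groups: the mean erythroid sum was 1097 CPM for batch A but 56659 CPM for batch B (5 of 7 called higher), and the epithelial sum 301 and 569 CPM (8 of 13 higher). The endothelial sum was 1222 and 327 CPM (8 of 8 called lower) and the leukocyte sum 2699 and 550.2 CPM (5 of 10 lower). Their part in this difference, and in those of Cdkn1a and Cdkn2d between the same groups, was not tested. Without the batch B libraries numbered 1 and 2 that difference was -0.66 (edgeR adjusted p = 0.0826). Within Sox2-positive cells it was 0.27 (SE 0.13, edgeR adjusted p = 0.218) by edgeR and 0.27 (adjusted p = 0.00834) by limma-voom. The order of the group means was batch B Sox2-positive, batch A Sox2-positive, batch A Sox2-negative and batch B Sox2-negative, and the ranges of the first pair and of the last pair overlapped. The opposite-strand gene Gm43126 shares 3.95% of the annotated exon bases of Ccnd2, and its Sox2-negative and Sox2-positive means were 23.3 and 3.27 CPM in batch A, then 65.8 and 14.0 CPM in batch B. No strand setting is given in the sources used here, so reads of such a pair cannot be told apart.

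**Figure D2:**
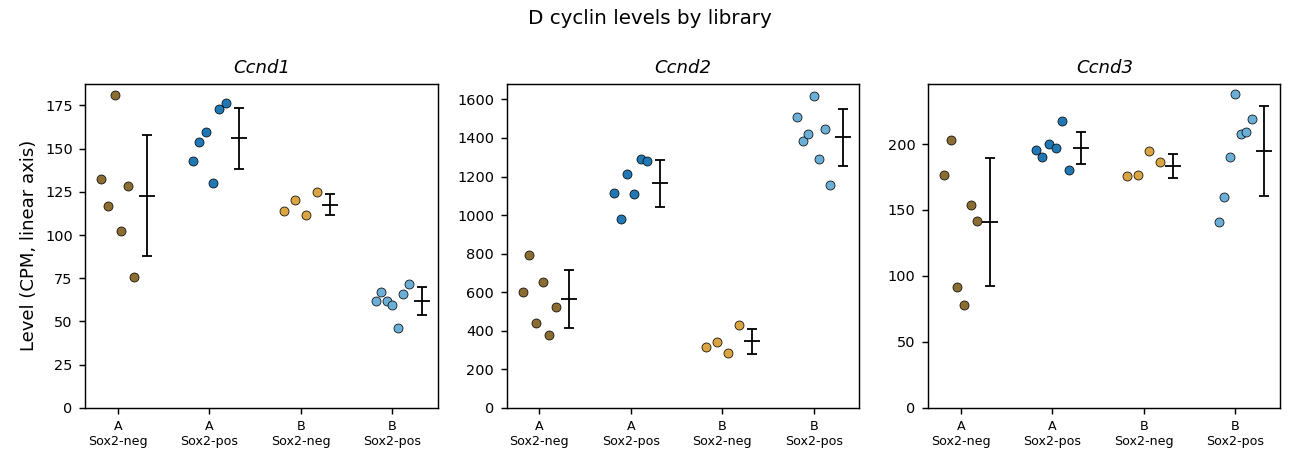
Levels in CPM (y axis, linear, a separate scale for each gene) of Ccnd1, Ccnd2 and Ccnd3 in each library (points) of the 4 groups (x axis), with the mean and SD (bars) beside the points. The 7 batch B Sox2-positive libraries sit between 45.9 and 71.7 CPM for Ccnd1, below all others, and the 13 Sox2-positive libraries sit at 978 CPM or more for Ccnd2, above all Sox2-negative ones.

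The population difference of Ccnd1 was unequal in the 2 batches. Ccnd1 (chromosome 7, 144929931 to 144939925, minus strand), a D cyclin that responds to growth-factor signalling, stood at 75.8, 123 and 181 CPM in batch A Sox2-negative and at 130.2, 157 and 176 CPM in batch A Sox2-positive libraries (lowest, median and highest). In batch B it stood at 114, 120.2, 112 and 125 CPM in the Sox2-negative libraries and at 45.9, 61.8 and 71.7 CPM in the Sox2-positive libraries. The batch B Sox2-positive libraries lay below all 16 others, while the ranges of the batch A populations overlapped. In batch A the log2 difference was 0.35 (SE 0.17, edgeR adjusted p = 0.112), and all 8 alternatives left it uncalled, with adjusted p from 0.0525 to 0.108. Over 12 single omissions it ran from 0.25 to 0.50, with edgeR adjusted p up to 0.214. Only 1 of them called it, that of Sox2-negative library 3 (0.50, edgeR adjusted p = 0.0178). In batch B it was -0.85 (SE 0.13, edgeR adjusted p = 5.39e-05). The interaction was -1.27 (SE 0.23, edgeR adjusted p = 0.000547), and it was called under all 8 alternatives tried, with adjusted p from 7.23e-06 to 0.0129. It was also called with any 1 of the 23 libraries left out. The pooled value of -0.25 (SE 0.17, edgeR adjusted p = 0.192) averages differences of opposite sign, of which only that in batch B was called.

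Between batches, Ccnd1 differed within the Sox2-positive population. It was lower in batch B than in batch A Sox2-positive cells (log2 difference -1.33, SE 0.15, edgeR adjusted p = 3.26e-07), where 10.4% of all genes were called. Between the Sox2-negative groups the difference was -0.06 (SE 0.17, edgeR adjusted p = 0.872). Other markers moved between the same Sox2-positive groups. The mean sums of epithelial markers were 5562 CPM (batch A) then 7914 CPM (batch B), with 4 of 13 called higher, and summed mesenchymal markers 1809 and 819 CPM, with 6 of 13 called lower. Summed glial and neural crest markers were 1308 to 1584 CPM in batch A and 84.6 to 120.1 CPM in batch B, with 8 of 8 called lower. Summed ameloblast markers were 293 to 349 CPM in batch A and 9.80 to 17.3 CPM in batch B, with 4 of 5 tested called lower and Amtn at 0 in both. Summed muscle and pericyte markers were 118 to 165 CPM in batch A and 514 to 625 CPM in batch B, with 5 of 7 tested called higher. The part of these markers in the Ccnd1 difference was not tested, and the day, the mice and the sorted cells of a batch cannot be told apart. The opposite-strand gene LTO1 shares 23.4% of the annotated exon bases of Ccnd1. Its group means lay between 26.8 and 32.6 CPM, and single libraries between 5.95 and 71.2 CPM, beside a Ccnd1 mean of 61.9 CPM in the lowest group. The part of LTO1 reads in the Ccnd1 values was not tested.

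No difference of Ccnd3 was called in the main edgeR fits. The population differences over both batches and in batch A lay near the threshold. Ccnd3 (chromosome 17, 47505051 to 47599691, plus strand), the D cyclin best known from lymphocyte development, stood at 78.2, 148 and 203 CPM in batch A Sox2-negative and at 181, 196 and 217 CPM in batch A Sox2-positive libraries. The batch B values were 176, 177, 195 and 186 CPM in Sox2-negative libraries and at 141, 207 and 238 CPM in Sox2-positive libraries. The ranges overlapped between all pairs of groups. The log2 difference over both batches was 0.30 (SE 0.13, edgeR adjusted p = 0.0549), just short of a call, and it was called in 6 of 8 alternatives and with 19 of the 23 libraries left out in turn. In batch A it was 0.49 (SE 0.20, edgeR adjusted p = 0.0526), and all 8 alternatives called it, with adjusted p from 0.0157 to 0.0491. The batch B value was 0.16 (SE 0.14, edgeR adjusted p = 0.358). The lowest batch B Sox2-positive levels, 141 and 159.6 CPM, were those of libraries 1 and 2, and without the libraries so numbered the difference over both batches was 0.43 (edgeR adjusted p = 0.0146).

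On a scale per length, Ccnd2 made up the greater part of the D cyclin RNA in Sox2-positive cells. CPM was divided by the mean length of the annotated transcripts of each gene, and each D cyclin was taken as a share of the sum of the 3. How the deposited counts were scaled is not given in the sources used here, and if they were already set per length, the shares and the levels per kilobase would be corrected for length more than once. In batch A the Ccnd2 share was 65.1% ± 7.66 (SD, n = 6) in Sox2-negative and 74.3% ± 1.60 (n = 6) in Sox2-positive cells. The batch B shares were 49.2% ± 4.29 (n = 4) and 81.3% ± 3.05 (n = 7). The Ccnd1 share in the same order was 12.2%, 8.19%, 13.9% and 2.97%. The Ccnd3 share was 22.7%, 17.5%, 36.8% and 15.8%. Ccnd2 was also the largest share when the union of exons was used as length, whereas the order of Ccnd1 and Ccnd3 then turned in every group but batch B Sox2-positive cells. The ratio of Ccnd2 to Ccnd1 counts, which needs no scaling between libraries, averaged 5.00 ± 1.99 and 7.50 ± 0.71 in batch A Sox2-negative and Sox2-positive cells, and 2.91 ± 0.38 and 23.1 ± 4.07 in batch B. The batch B Sox2-positive ratios, 16.1 to 28.1, lay above those of all other libraries, which reached 8.52. These shares and ratios are descriptions without a test.

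**Figure D3:**
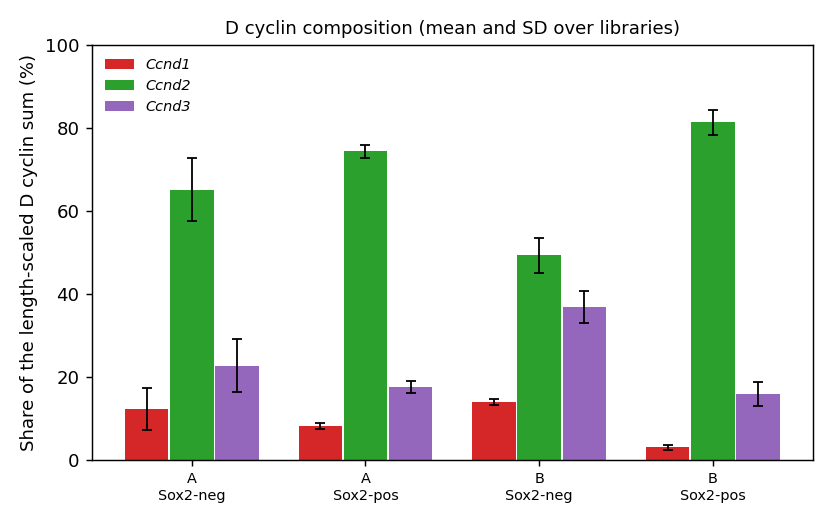
Share (y axis, %) of each D cyclin in the summed D cyclin level per length in the 4 groups (x axis); bars are means and error bars SD over libraries. Ccnd2 has the tallest bar in every group, from 49.2% to 81.3%, and Ccnd1 falls to 2.97% in batch B Sox2-positive cells.

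Cdkn1a was the only one of the 10 genes whose ranges overlapped between no pair of groups. For a single pair, 8.56% to 37.0% of all tested genes did not overlap. The share of genes without overlap in every pair was not counted. Cdkn1a (chromosome 17, 29090976 to 29100727, plus strand) stood at 217, 308 and 343 CPM in batch A Sox2-negative and at 71.3, 81.6 and 90.0 CPM in batch A Sox2-positive libraries (lowest, median and highest). Batch B levels were 359, 369, 353 and 485 CPM in Sox2-negative libraries and at 113, 123 and 149.5 CPM in Sox2-positive libraries. The levels descended in the order batch B Sox2-negative, batch A Sox2-negative, batch B Sox2-positive and batch A Sox2-positive. The log2 difference between the populations was -1.76 (SE 0.09, edgeR adjusted p = 3.69e-15) over both batches, a 3.40-fold lower level in Sox2-positive cells. It was -1.86 (SE 0.13, edgeR adjusted p = 1.32e-08) in batch A and -1.57 (SE 0.12, edgeR adjusted p = 1.34e-08) in batch B, and the interaction was 0.22 (SE 0.17, edgeR adjusted p = 0.519).

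Cdkn1a was higher in batch B than in batch A Sox2-positive cells (log2 difference 0.62, SE 0.11, edgeR adjusted p = 0.000373), and all 7 alternatives called it. In Sox2-negative cells the batch difference was 0.40 (SE 0.13, edgeR adjusted p = 0.0422), but 6 of 7 alternatives did not call it, with adjusted p up to 0.235. The call was lost when library 1, 2 or 4 of batch A or library 2 or 4 of batch B was left out, at 0.29 (edgeR adjusted p = 0.181) without batch B library 4, the highest. Without the batch B libraries numbered 1 and 2 the difference was 0.49 (edgeR adjusted p = 0.0957). Ranges that did not overlap between the batches were found for 8.87% of genes in Sox2-negative and 8.56% in Sox2-positive cells. Between the same Sox2-positive groups, 7 of 20 proliferation genes were called lower (5.54% of all genes) and 0 higher (4.85%), as given below. The marker sums given for Ccnd1 also moved there. The part of these genes and markers in the Cdkn1a difference was not tested.

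**Figure D4:**
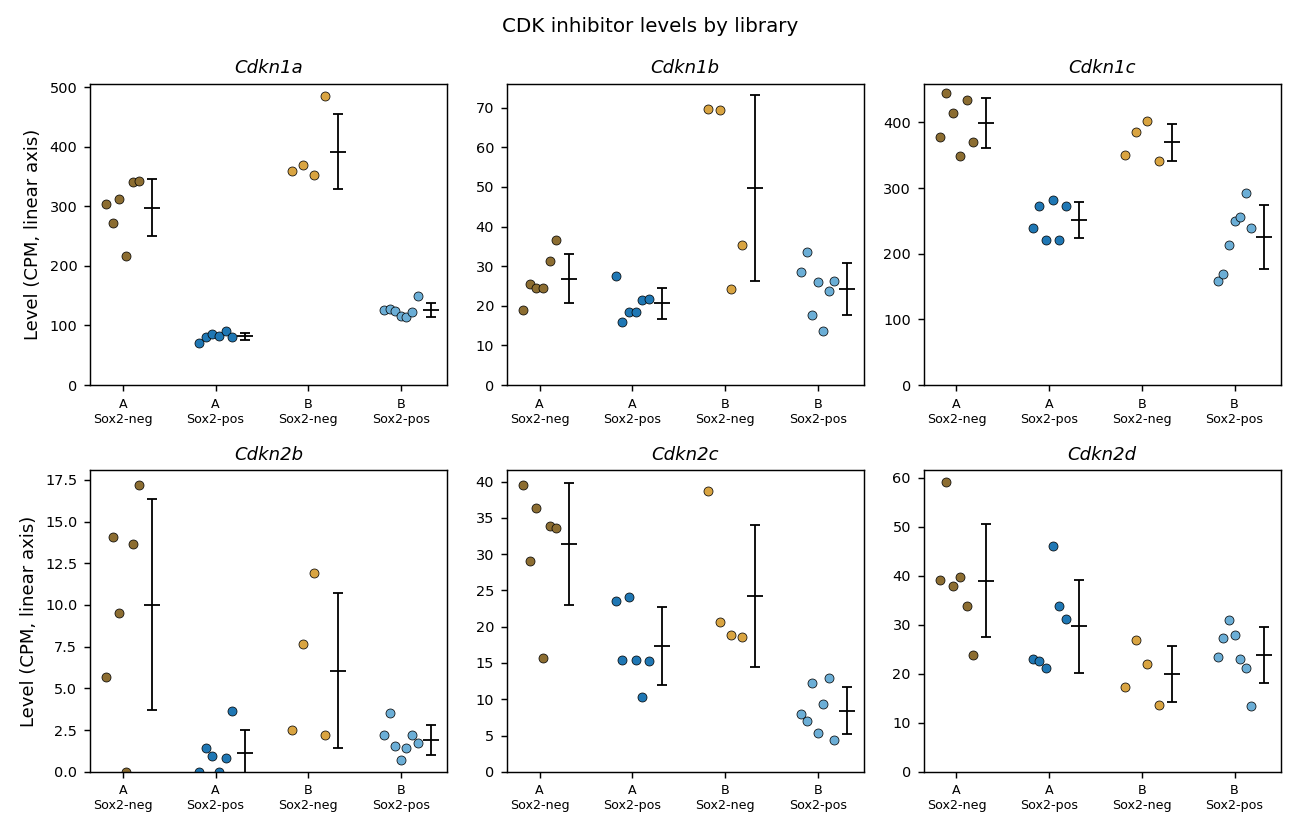
Levels in CPM (y axis, linear, a separate scale for each gene) of the 6 tested inhibitors in each library (points) of the 4 groups (x axis), with the mean and SD (bars) beside the points. Cdkn1a and Cdkn1c of Sox2-positive libraries lie below all Sox2-negative ones, batch B Sox2-negative libraries 1 and 2 lie at 69.7 and 69.5 CPM for Cdkn1b, and Cdkn2b stays at 17.2 CPM or less.

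Cdkn1c, which encodes p57, an imprinted inhibitor expressed from the maternal allele, was lower in Sox2-positive cells in both batches. Cdkn1c (chromosome 7, 143458339 to 143461050, minus strand) stood at 349, 397 and 445 CPM in batch A Sox2-negative and at 222, 256 and 282 CPM in batch A Sox2-positive libraries. In batch B the levels were 351, 385, 402 and 342 CPM in Sox2-negative and at 158, 239 and 292 CPM in Sox2-positive libraries. The Sox2-positive libraries of either batch lay below all Sox2-negative ones. Libraries 1 and 2 of batch B Sox2-positive cells were the lowest of their group, at 158 and 169 CPM. The log2 difference was -0.69 (SE 0.09, edgeR adjusted p = 5.42e-07) over both batches, -0.66 (SE 0.10, edgeR adjusted p = 5.68e-05) in batch A and -0.64 (SE 0.15, edgeR adjusted p = 0.00199) in batch B. Over the alternatives the batch B value ran from -0.86 to -0.54. The interaction was -0.05 (SE 0.18, edgeR adjusted p = 0.931), and its sign turned under some settings. The batch difference was -0.11 (SE 0.14) in Sox2-negative and -0.16 (SE 0.12) in Sox2-positive cells, neither called. The opposite-strand gene Gm44732 shares 30.7% of the exon bases of Cdkn1c and reached 1.42 CPM at most.

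Cdkn1b, the inhibitor that restrains cyclin E with Cdk2 in resting cells, was lower in Sox2-positive cells over both batches. That call was lost without the batch B libraries numbered 1 and 2. Cdkn1b (chromosome 6, 134920401 to 134925513, plus strand) stood at 18.9, 25.01 and 36.5 CPM in batch A Sox2-negative and at 16.0, 20.0 and 27.5 CPM in batch A Sox2-positive libraries. In batch B it stood at 69.7, 69.5, 24.1 and 35.3 CPM in Sox2-negative and at 13.6, 25.9 and 33.5 CPM in Sox2-positive libraries. Libraries 1 and 2 of batch B Sox2-negative cells were the highest of all, and those 2 numbers were also the highest within batch B Sox2-positive cells, at 28.5 and 33.5 CPM. The log2 difference was -0.69 (SE 0.20, edgeR adjusted p = 0.00498) over both batches, -0.38 (SE 0.28, edgeR adjusted p = 0.294) in batch A and -0.96 (SE 0.29, edgeR adjusted p = 0.0103) in batch B. Without the batch B libraries numbered 1 and 2 it was -0.36 (edgeR adjusted p = 0.153) over both batches and -0.44 (edgeR adjusted p = 0.304) in batch B. In batch B the call was also lost without Sox2-negative library 1 alone (-0.75, edgeR adjusted p = 0.0547) or library 2 alone (-0.75, edgeR adjusted p = 0.0546). Between the Sox2-negative groups the batch difference was 0.89 (SE 0.30, edgeR adjusted p = 0.0523), and 0.145 (edgeR adjusted p = 0.898) without the libraries numbered 1 and 2. It was called by DESeq2 (0.83, adjusted p = 0.0357) and limma-voom (1.06, adjusted p = 0.0455), and by edgeR without batch A library 6 or batch B library 3 or 4.

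The INK4 genes were expressed at lower levels than the leading CIP/KIP genes. Per kilobase of mean transcript length, Cdkn1c averaged 356 CPM and Cdkn1a 211 CPM in batch A Sox2-negative cells, against 34.6 CPM for Cdkn2d, 17.5 CPM for Cdkn2c and 7.21 CPM for Cdkn2b. In batch B Sox2-positive cells the same levels per kilobase were 201 CPM for Cdkn1c, 89.0 CPM for Cdkn1a, 21.2 CPM for Cdkn2d, 4.72 CPM for Cdkn2c and 1.37 CPM for Cdkn2b. Cdkn1b, at 9.27 and 8.35 CPM per kilobase in those groups, was in the range of the INK4 genes. Summed over the 7 inhibitors, CPM without length scaling averaged 804 ± 84.5 and 402 ± 29.0 in batch A Sox2-negative and Sox2-positive cells, and 861 ± 31.2 and 409 ± 43.3 in batch B. The sum of the 3 D cyclins ran the other way, from 828 ± 165 to 1517 ± 136 CPM in batch A and from 645 ± 68.1 to 1659 ± 148 CPM in batch B. Each sum followed its leading genes, Cdkn1a and Cdkn1c for the inhibitors and Ccnd2 for the D cyclins. Ccnd2 averaged 564 and 1164 CPM in batch A, then 344 and 1403 CPM in batch B. The batch B means of Ccnd1 ran against the D cyclin sum, at 118 CPM in Sox2-negative and 61.9 CPM in Sox2-positive cells.

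Cdkn2c, which encodes the INK4 protein p18, was lower in Sox2-positive cells. Cdkn2c (chromosome 4, 109660876 to 109667189, minus strand) stood at 15.7, 33.7 and 39.5 CPM in batch A Sox2-negative and at 10.3, 15.4 and 24.1 CPM in batch A Sox2-positive libraries. The batch B values were 38.8, 20.7, 18.9 and 18.5 CPM in Sox2-negative and at 4.32, 7.92 and 12.9 CPM in Sox2-positive libraries. The populations overlapped in batch A, through the single Sox2-negative library at 15.7 CPM, and did not overlap in batch B. The log2 difference was -1.16 (SE 0.23, edgeR adjusted p = 0.000142) over both batches and was called in all 8 alternatives and with any 1 library left out. In batch B it was -1.43 (SE 0.33, edgeR adjusted p = 0.00179), and -1.03 (edgeR adjusted p = 0.0948) without the libraries numbered 1 and 2. In batch A it was -0.85 (SE 0.32, edgeR adjusted p = 0.0405), which 3 of 8 alternatives and 8 of 12 single omissions did not call, with adjusted p up to 0.121. These omissions were Sox2-negative libraries 1, 3, 5 and 6 and Sox2-positive libraries 2, 4, 5 and 6, with log2 differences from -0.73 to -0.83 where the call was lost. Between the Sox2-positive groups Cdkn2c was lower in batch B (-1.02, SE 0.31, edgeR adjusted p = 0.03), and 2 of 7 alternatives and 6 of 13 single omissions lost that call. Without the batch B libraries numbered 1 and 2 it was -0.95 (edgeR adjusted p = 0.134). The single omissions were libraries 1 and 3 of batch A and 1, 2, 4 and 7 of batch B.

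Cdkn2b, the INK4 gene known as a target of TGF-beta signalling, was scarce. Cdkn2b (chromosome 4, 89306299 to 89311039, minus strand) stood at 5.69, 14.1, 9.49, 0, 13.7 and 17.2 CPM in batch A Sox2-negative libraries and at 0, 1.43, 0.941, 0, 0.805 and 3.66 CPM in batch A Sox2-positive libraries. Batch B levels were 2.496, 7.65, 11.9 and 2.21 CPM in Sox2-negative and between 0.727 and 3.53 CPM in Sox2-positive libraries. The populations overlapped in both batches, and several Sox2-positive values lay near the 3-count level. The log2 difference was -2.43 (SE 0.65, edgeR adjusted p = 0.00227) over both batches, called in all 8 alternatives. It was -3.07 (SE 1.03, edgeR adjusted p = 0.0238) in batch A and -1.57 (SE 0.56, edgeR adjusted p = 0.0267) in batch B. The batch A call was lost without Sox2-positive library 3 (-3.01, edgeR adjusted p = 0.0503) or 5 (-2.98, edgeR adjusted p = 0.0516). The batch B call was lost in 4 of 9 alternatives, and without Sox2-negative library 2 (-1.44, edgeR adjusted p = 0.0696) or 3 (-0.996, edgeR adjusted p = 0.169).

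Cdkn2d, which encodes p19 of the INK4 family and is distinct from the Arf product of Cdkn2a, did not pass the test between the populations. Cdkn2d (chromosome 9, 21288410 to 21291407, minus strand) stood at 23.9, 38.5 and 59.2 CPM in batch A Sox2-negative and at 21.3, 27.1 and 46.0 CPM in batch A Sox2-positive libraries. For the Sox2-positive libraries of batch B the values were 13.4, 23.4 and 30.98 CPM. The 4 batch B Sox2-negative libraries had 17.2, 26.9, 22.0 and 13.6 CPM. All pairs of groups overlapped. The log2 difference was -0.10 (SE 0.20, edgeR adjusted p = 0.697) over both batches, -0.39 (SE 0.28, edgeR adjusted p = 0.283) in batch A and 0.34 (SE 0.26, edgeR adjusted p = 0.287) in batch B. The interaction was 0.66 (SE 0.39, edgeR adjusted p = 0.365). Between the Sox2-negative groups it was lower in batch B (-0.97, SE 0.30, edgeR adjusted p = 0.0349), and 3 of 7 alternatives did not call this, among them the omission of the batch B libraries numbered 1 and 2 (-1.12, edgeR adjusted p = 0.159). The call was also lost without batch A library 2 (-0.81, edgeR adjusted p = 0.0765) or batch B library 1, 3 or 4, with adjusted p up to 0.123.

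Cdkn2a, whose locus gives both the INK4 protein p16 and the p53 activator Arf from separate first exons, was near the limit of detection. Cdkn2a (chromosome 4, 89274471 to 89294653, minus strand) had 1, 0, 0, 0, 9 and 0 counts in the batch A Sox2-negative libraries, 1 count in Sox2-positive library 1 of batch A, and 0 counts in the other 5 libraries of that group and in all 11 batch B libraries. The 9 counts corresponded to 1.89 CPM. A count of 0 allows a level of up to 0.357 to 1.30 CPM, depending on the library, and this covers counting error only. Gene-level counts do not separate the products of the 2 start sites. With the filter removed, the log2 difference over both batches was -1.83 (edgeR adjusted p = 0.148), and in batch A it was -2.61 (edgeR adjusted p = 0.179). No level of either product above that limit was detectable in batch B at this depth.

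The kinases that D cyclins activate were higher in Sox2-positive cells. In batch A, Cdk4 averaged 444 ± 39.6 CPM (SD, n = 6) in Sox2-negative and 921 ± 128 CPM (n = 6) in Sox2-positive cells. Batch B means were 633 ± 97.5 CPM (n = 4) and 948 ± 109 CPM (n = 7). Its log2 difference was 0.83 (SE 0.09, edgeR adjusted p = 1.59e-08) over both batches. Cdk6 stood at 197 ± 25.8, 347 ± 39.7, 157 ± 38.3 and 268 ± 41.8 CPM in the same groups, with a log2 difference of 0.80 (SE 0.10, edgeR adjusted p = 1.3e-07). Of the 11 G1/S kinases and partner cyclins listed, 6 were called higher (24.9% of all genes) and 0 lower (32.5%). The median was 0.40, against -0.12 over all genes. The called genes were Cdk4, Cdk6, Ccne1 (0.86), Ccne2 (0.84), Ccna2 (0.40) and Ccnh (0.47). Of 10 tested in each batch, 6 were called higher in batch A (19.3% of all genes) and 3 in batch B (27.1% of all genes), the latter near the background. Ccna2 itself was 0.89 (edgeR adjusted p = 0.000792) in batch A and -0.06 (edgeR adjusted p = 0.767) in batch B. Ccne1 was 1.37 (edgeR adjusted p = 0.00656) in batch A and 0.37 (edgeR adjusted p = 0.248) in batch B. Ccne2 was 1.55 (edgeR adjusted p = 0.00434) in batch A and 0.14 (edgeR adjusted p = 0.727) in batch B. In the interaction, Ccna2 (-1.02, edgeR adjusted p = 0.0107) and Cdc25a (-1.27, edgeR adjusted p = 0.0325) were called, both with a lower value in batch B.

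Downstream of the kinases the list was mixed. Of 13 retinoblastoma-family and E2F genes, 4 were called higher (24.9% of all genes) and 2 lower (32.5%). The median was -0.13, against -0.12 over all genes. E2f6, a repressor of the family, was higher (1.13, SE 0.21, edgeR adjusted p = 4.05e-05), as were E2f1 (0.72), the E2F partner Tfdp1 (0.71) and Tfdp2 (0.60). E2f1 was 1.28 (edgeR adjusted p = 0.00324) in batch A and 0.17 (edgeR adjusted p = 0.658) in batch B. Its interaction of -1.17 was not called (edgeR adjusted p = 0.105). The activators E2f2 (-1.31, SE 0.33, edgeR adjusted p = 0.00121) and E2f3 (-0.79) were lower. Rb1, which encodes the retinoblastoma protein, differed by -0.48 (SE 0.30, edgeR adjusted p = 0.171). Among 7 genes of D cyclin and inhibitor turnover, 2 were called higher (24.9% of all genes) and 3 lower (32.5%). Gsk3b, a kinase that marks cyclin D1 for destruction, was higher (0.93, SE 0.09, edgeR adjusted p = 1.65e-09), as was Cks1b (0.62), a cofactor in the breakdown of p27. Fbxo4 (-0.79) and Ambra1 (-0.63), parts of ubiquitin ligases, were lower over both batches. Neither was called in batch A or in batch B alone (edgeR adjusted p from 0.0955 to 0.21). Cul1 (-0.39), a ligase scaffold, was 0.10 (edgeR adjusted p = 0.649) in batch A and -0.84 (edgeR adjusted p = 0.00106) in batch B, with an interaction of -1.001 (edgeR adjusted p = 0.0122).

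Regulators known to act on these genes differed in both directions. Of 10 listed, 2 were called higher (24.9% of all genes) and 2 lower (32.5%). The median was 0.19, against -0.12 over all genes. Myc, which represses Cdkn1a and Cdkn2b together with Zbtb17, was higher in Sox2-positive cells (1.96, SE 0.15, edgeR adjusted p = 2.89e-11), with group means of 23.7, 82.0, 17.9 and 79.8 CPM in batch A Sox2-negative, batch A Sox2-positive, batch B Sox2-negative and batch B Sox2-positive cells. Trp53, which encodes p53, was also higher (1.15, SE 0.11, edgeR adjusted p = 2.5e-09). Foxo3, a forkhead factor that activates Cdkn1b, was lower (-1.38, SE 0.12, edgeR adjusted p = 2.51e-10), as was the p53 inhibitor Mdm4 (-0.51). Mdm4 was called in neither batch alone, at -0.745 (edgeR adjusted p = 0.0736) in batch A and -0.16 (edgeR adjusted p = 0.499) in batch B. Of 13 other p53 target genes, 5 were called higher (24.9% of all genes) and 2 lower (32.5%), with a median of 0.46. Btg2 (1.68, SE 0.16, edgeR adjusted p = 1.28e-09) and Phlda3 (1.33, SE 0.20, edgeR adjusted p = 2.09e-06) were higher, whereas Zmat3 (-1.11) was lower. Plk2 was also called lower over both batches (-0.99), but it was -1.89 (edgeR adjusted p = 9.27e-05) in batch A and 0.32 (edgeR adjusted p = 0.347) in batch B, with an interaction of 2.15 (edgeR adjusted p = 0.0017). Cdkn1a, itself a p53 target, thus differed in the opposite direction from the median of this list.

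Proliferation genes were mostly higher in Sox2-positive cells. Of 20 listed, 14 were called higher (24.9% of all genes) and 3 lower (32.5%). The median was 0.58, against -0.12 over all genes. The largest differences were those of Tyms (1.67, SE 0.15, edgeR adjusted p = 2.94e-10), which makes thymidylate, Ccnb1 (1.49), a mitotic cyclin, Mcm6 (1.39), a part of the replicative helicase, and Rrm2 (1.35), a subunit of ribonucleotide reductase. The 3 lower genes were Mki67 (-0.37, SE 0.11, edgeR adjusted p = 0.00571), Top2a (-0.63) and Mcm3 (-0.93). Mki67, the usual antigen of cycling cells, had group means of 115, 89.7, 127 and 98.2 CPM in the order used for Myc. Between the Sox2-positive groups, where Ccnd1 was lower in batch B, 7 of the 20 were called lower and 0 higher, among them Rrm2 (-0.99), Mcm6 (-0.89) and Pcna (-0.71). Of all genes, 4.85% were called higher and 5.54% lower in that comparison, and with total-count scaling the split was 666 higher and 1214 lower in place of 833 and 952. In the interaction 4 of 20 were called, where 7.04% of all genes were called and 4.22% in this direction. These were Pcna, Mcm5, Mcm6 and Mcm7, all with a lower value in batch B.

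Likeness over the 23 libraries was described by Pearson's r of log2 CPM among the 11092 genes with a mean of at least 10 CPM. The nearest genes were Ccn1 (r = 0.917) and Insc (0.894) for Ccnd1, and Gm6166 (0.958) and Itm2b (0.956) for Ccnd2. For Ccnd3 they were Akt2 (0.85) and Blmh (0.842). For Cdkn1a they were Igf2 (0.978), an imprinted growth factor, and Gpx3 (0.969). For Cdkn1c they were Qsox1 (0.937) and Fcgrt (0.926), for Cdkn2c Nid1 (0.907) and Ets1 (0.889), and for Cdkn1b Sf3b5 (0.857) and Rpl29 (0.85). Cdkn2d had the weakest nearest neighbours, Rhoc (0.747) and 9630050E16Rik (0.744). These libraries share their batches and populations, so such values describe the 4 groups more than 23 independent points.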

How the data were processed

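The deposited table held estimated counts per gene for 23 libraries, which per the submitters' processing notes involved FastQC, Trimmomatic, Salmon and the mm10 build; versions, annotation and strand setting are not given in the sources used here. Nearly no deposited value was whole (0.000436% of nonzero values, within 1e-06), while column totals lay within 0.111 of a whole number, and how the values were scaled before deposit is not given in the sources used here. They were rounded to whole numbers. Symbols came from GENCODE M21 by identifier without version (54094 matched, 99.5%). All 57 pairs of libraries from 1 group differed by more than counting noise (chi-square over its degrees of freedom was at least 5.27). Unused columns of per-sample values numbered 0, and rows naming no gene numbered 0.

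All genes passing edgeR's filterByExpr (minimum count 10) were fitted with edgeR 4.0.16 in R 4.3.3: TMM scaling, quasi-likelihood F test, two-sided, Benjamini-Hochberg adjustment, call at 0.05. The fit of both batches had batch as covariate; each batch was also fitted alone; a model of the 4 group means gave the interaction and the batch differences. SE is the absolute log2 difference over the square root of F. Alternatives were RLE and total-count scaling, no filter beyond 1 count, a mean of 10 counts, DESeq2 1.42.0, limma-voom 3.58.1 with quality weights, a replicate block, the model of 4 group means for each batch, and omission of libraries. The fits were tested on simulated data. The genes and lists were chosen with earlier results of these data known. Named genes were all 10, called members of the fixed lists by size with a mean of at least 10 CPM, Cdk4, Cdk6, Rb1, Mki67 and Sox2, and the 2 nearest genes by correlation; genes called in other comparisons were named after their values were seen. Overlapping genes come from GENCODE M21. Of 8 turnover genes listed, 7 matched by symbol.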

Additional observations from a re-analysis of the deposited data

Results flagged for a closer look

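Within groups, 5 single libraries stood far from the others by Dixon's criterion for an outlying value, in 38 gene-by-group sets examined. For normally spread values chance alone flags about 1 in 20 such sets. That rate does not hold for the Cdkn2a sets, where most counts were 0 and a lone count is always flagged. Cdkn1a was 485 CPM in batch B Sox2-negative library 4 and 149.5 CPM in batch B Sox2-positive library 7, each the highest of its group. Cdkn2c was 38.8 CPM in batch B Sox2-negative library 1. Cdkn2a was 1.89 CPM in batch A Sox2-negative library 5 and 0.221 CPM in batch A Sox2-positive library 1, against 0 in most libraries of those groups, and the second of these is 1 count.

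The population difference of 2 genes was unequal in the 2 batches by the test of the interaction. For Ccnd1 the difference in batch B minus that in batch A was -1.27 on the log2 scale, and for Ccnd2 it was 0.98, the latter not called when the batch B libraries numbered 1 and 2 were both left out.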

How the results depend on the processing

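Over the alternatives, 423 values of the 9 tested genes were recomputed besides the single omissions: 379 kept their direction and side of the threshold, 23 lost a call, 17 gained one and 4 turned in sign. Over single omissions the same numbers were 764, 29, 25 and 10 of 828. Total-count scaling raised the median of all genes from -0.12 to 0.00 over both batches and lowered it from 0.00 to -0.15 between the Sox2-negative groups, where the split of calls went from 1005 higher and 919 lower to 661 and 1388; no call of the 10 genes turned in sign. The values that turned were none of them called: under total-count scaling Cdkn2d over both batches was 0.026 and the Cdkn1c interaction 0.007, and without the batch B libraries numbered 1 and 2 the Cdkn1c interaction was 0.079 and Ccnd3 between the Sox2-positive groups 0.10. With 1 library left out, Cdkn2d over both batches ran from -0.17 to 0.01, Ccnd1 between the Sox2-negative groups from -0.16 to 0.08, Ccnd3 between the Sox2-positive groups from -0.065 to 0.057 and the Cdkn1c interaction from -0.12 to 0.015. Counts of called genes between the Sox2-positive groups were 3313 with limma-voom against 1785 with edgeR. Without the batch B libraries numbered 1 and 2, with fewer samples in the fit, the counts were 481 for the interaction (1210 with them), 754 between the Sox2-negative groups (1924) and 1159 between the Sox2-positive groups (1785). With 1 library left out, counts ran from 9621 to 10091 over both batches, 5805 to 6300 in batch A, 8005 to 8794 in batch B, 938 to 1254 for the interaction, 1331 to 1989 between the Sox2-negative and 1497 to 1685 between the Sox2-positive groups. Deviations of same-numbered libraries from their group means correlated at r from -0.021 to 0.012 in 6 pairs of batch A and 0.003 to 0.044 in 4 pairs of batch B, none over 0.1, so the numbers were not taken to pair the libraries. In batch B, the 4 pairs among numbers 1 and 2, same-numbered or not, had r from 0.04 to 0.06, while their pairs with higher numbers had r from -0.047 to 0. With the replicate block the interaction count was 557, Cdkn2c in batch A was -0.85 (edgeR adjusted p = 0.0728), Cdkn2b in batch B -1.36 (edgeR adjusted p = 0.166) and Ccnd3 in batch A 0.56 (edgeR adjusted p = 0.0393); the block changed no other call of the 9 genes. With the union of exons as length, the Ccnd1 shares were 26.04%, 18.5%, 30.4% and 7.17% in batch A Sox2-negative, batch A Sox2-positive, batch B Sox2-negative and batch B Sox2-positive cells, the Ccnd3 shares 15.7%, 12.6%, 25.5% and 12.1%, and the Ccnd2 share 68.9% in batch A Sox2-positive and 44.1% in batch B Sox2-negative cells. Except for fewer samples and another length, the cause of these changes was not tested. Depth limits Cdkn2a and the lowest values of Cdkn2b. Omitting the batch B libraries numbered 1 and 2 gives no value for the batch A fit, which holds no batch B library.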
